A study of Mus musculus with 4 samples.

Results

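The transcripts of the Dlk1-Dio3 imprinted cluster, on distal mouse chromosome 12, were followed on 4 Affymetrix mouse arrays through every probe set of 4 genes, Meg3, Rian, Mirg and Dlk1. The genes were chosen by name, as 4 of the 18193 genes measured, and the platform annotation gave them 19 probe sets: 11 for Meg3, 4 for Rian, 2 for Mirg and 2 for Dlk1. The question was at what level each transcript stood in an induced pluripotent stem cell (iPSC) clone and in embryonic stem cell (ESC) lines derived from it by nuclear transfer (NT), and whether the clone and the lines differed. One array held RNA of the iPSC clone Adeno-1, whose origin is given as tail-tip fibroblasts and whose vectors were adenoviral, and 3 arrays held RNA of the NT-ESC lines NT-1, NT-2 and NT-3, taken from blastocysts cloned with Adeno-1 as nuclear donor. All 4 were grown on a feeder layer of irradiated embryonic fibroblasts, in ESC medium holding LIF and 15% serum, and were preplated for 45 min against carry-over of feeders. The labels name no mouse strain, sex or age. The single clone has no replicate, the lines are called subclones of it without saying whether they were derived separately, and no ESC line from a fertilised embryo and no fibroblast sample was among the 4 arrays.

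Imprinted genes are expressed from the copy inherited from 1 parent. In this cluster the maternal copy gives noncoding RNAs (Meg3, also called Gtl2, then Rian and Mirg), which carry microRNAs and small nucleolar RNAs, and the paternal copy gives the protein-coding genes Dlk1, Rtl1 and Dio3. Methylation of the intergenic control region on the paternal copy keeps the noncoding RNAs off there. In mouse iPSCs the maternal copy is often silenced as well, so the level of Meg3 is widely used as a sign of the state of the cluster. Fibroblasts of the mouse embryo express Meg3 and Dlk1.

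The start of Meg3 is shown because it is the promoter whose maternal copy is active and whose paternal copy is methylated, and the start given for Rian is shown beside it for comparison. Both windows run from 250 bases before to 50 bases after an annotated start, are taken from RefSeq on build GRCm38.p6, and lie on the + strand, and capitals mark CG dinucleotides, the sites of DNA methylation.

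Meg3, chr12:109540746-109541045: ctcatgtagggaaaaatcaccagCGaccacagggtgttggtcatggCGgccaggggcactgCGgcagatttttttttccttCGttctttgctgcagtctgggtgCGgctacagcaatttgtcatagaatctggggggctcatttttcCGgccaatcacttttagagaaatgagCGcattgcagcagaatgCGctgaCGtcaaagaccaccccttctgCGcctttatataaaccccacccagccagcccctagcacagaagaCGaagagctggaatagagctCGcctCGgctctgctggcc

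Rian, chr12:109603695-109603994: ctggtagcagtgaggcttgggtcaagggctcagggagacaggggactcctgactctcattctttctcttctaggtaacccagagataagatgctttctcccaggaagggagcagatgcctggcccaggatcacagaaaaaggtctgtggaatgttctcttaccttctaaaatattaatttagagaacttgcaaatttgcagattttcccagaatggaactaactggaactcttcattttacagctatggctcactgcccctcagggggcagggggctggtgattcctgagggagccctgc

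The Meg3 window held 13 CG dinucleotides and the Rian window 0, against a median of 7 over 32851 windows of the same length. A second annotated Meg3 start had 1, the Mirg window 10 and the Dlk1 window 9. Searched on both strands, the letters TGCCGC, the core of the motif bound by the imprint-protecting factor ZFP57, stood once in the first Meg3 window, at position 61 on the reverse strand. They occur in 11.6% of all windows. TGACGTCA, the cAMP response element, stood at position 194 of that window and is found in 1.79% of windows. TATAAA stood at position 226 and, overlapping it on the reverse strand, at position 222, and 13.6% of windows hold it. None of these motifs was found in the windows of Rian, Mirg or Dlk1. The table shows no methylation, so these letters are a description of the locus only.

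The noncoding genes also matter for the microRNAs inside them. By position in RefSeq on GRCm38.p6, 2 microRNA genes lie within Meg3, 3 within Rian and 10 within Mirg, with 28 mature sequences in all. One is shown for each host, with its seed (bases 2 to 8) in capitals, together with the 1 pair of the 28 that shares a seed, both in Mirg. The microRNAs themselves were not analysed here.

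miR-770-5p, in Meg3: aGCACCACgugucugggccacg

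miR-370-3p, in Rian: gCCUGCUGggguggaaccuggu

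miR-410-3p, in Mirg: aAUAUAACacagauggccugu

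miR-453, in Mirg: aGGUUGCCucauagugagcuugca

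miR-496a-5p, in Mirg: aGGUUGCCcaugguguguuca

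Levels below are log2 intensities rebuilt from the deposited ratios taking 7 as the mean of each array, an assumption, so differences scale with that choice, and levels of different probe sets are not compared as amounts of RNA. The arrays carry no call of presence or absence. A level was therefore set against genes restricted to other tissues (a silent reference of 57 probe sets of 42 genes, such as those of lens, muscle, liver and pituitary) on the same array. A few of these were bright themselves: 1 probe set of Pomc was above the limit on every array, at 8.30 to 8.44, and Apoa2 had 9.05 in the clone, 9.08 in line 1 and 8.95 in line 2 but 7.58 in line 3, below that array's limit. Their median level was 6.04 to 6.09 per array. Their 95th percentile, used here as the limit, was 7.83 for the clone, 7.79 for line 1, 7.40 for line 2 and 7.61 for line 3. The pluripotency list stood clearly above the limit, with 12 of 12 genes over the mean limit and a median level between 11.72 and 11.89 per array.

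Meg3 was above the limit on every array by 4 of its 11 probe sets, and the other 3 genes were below it on every array by all of theirs. Of the 19 probe sets, 4 exceeded the limit in the clone, 4 in line 1, 7 in line 2 and 5 in line 3, and all of these belonged to Meg3. Over all probe sets, 30.7% in the clone, 31.8% in line 1, 38.3% in line 2 and 34.4% in line 3 were above the limit, so the count follows the limit as well as the genes. At this limit the 19 passed on no array more often than probe sets at large. The 4 of 11 of Meg3 in the clone and in line 1 were little above that share. With 1 common limit for all arrays the counts were 5, 4, 4 and 4, against backgrounds of 33.5%, 33.8%, 33.7% and 33.7%, and line 2 no longer had more than the others. At the 99th percentile of the silent reference, 2 Meg3 probe sets passed in the clone, 2 in line 1, 4 in line 2 and 4 in line 3. Of all probe sets 18.9%, 19.2%, 20.6% and 27.4% did. By these limits Adeno-1 and each NT line had some Meg3 probe sets over the limit, with Rian, Mirg and Dlk1 under it. For Rian this depends on the limit: at the 90th percentile of the silent reference 1 of its 4 probe sets passed in the clone, 0 in line 1, 2 in line 2 and 1 in line 3, where 39.8%, 40.0%, 41.9% and 39.9% of all probe sets did, while Mirg and Dlk1 had 0. A probe set under the limit may also respond poorly, so silence and insensitivity cannot be told apart, and without an ordinary ESC line the table does not say how far the Meg3 level lies from that of such cells.

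**Figure D1:**
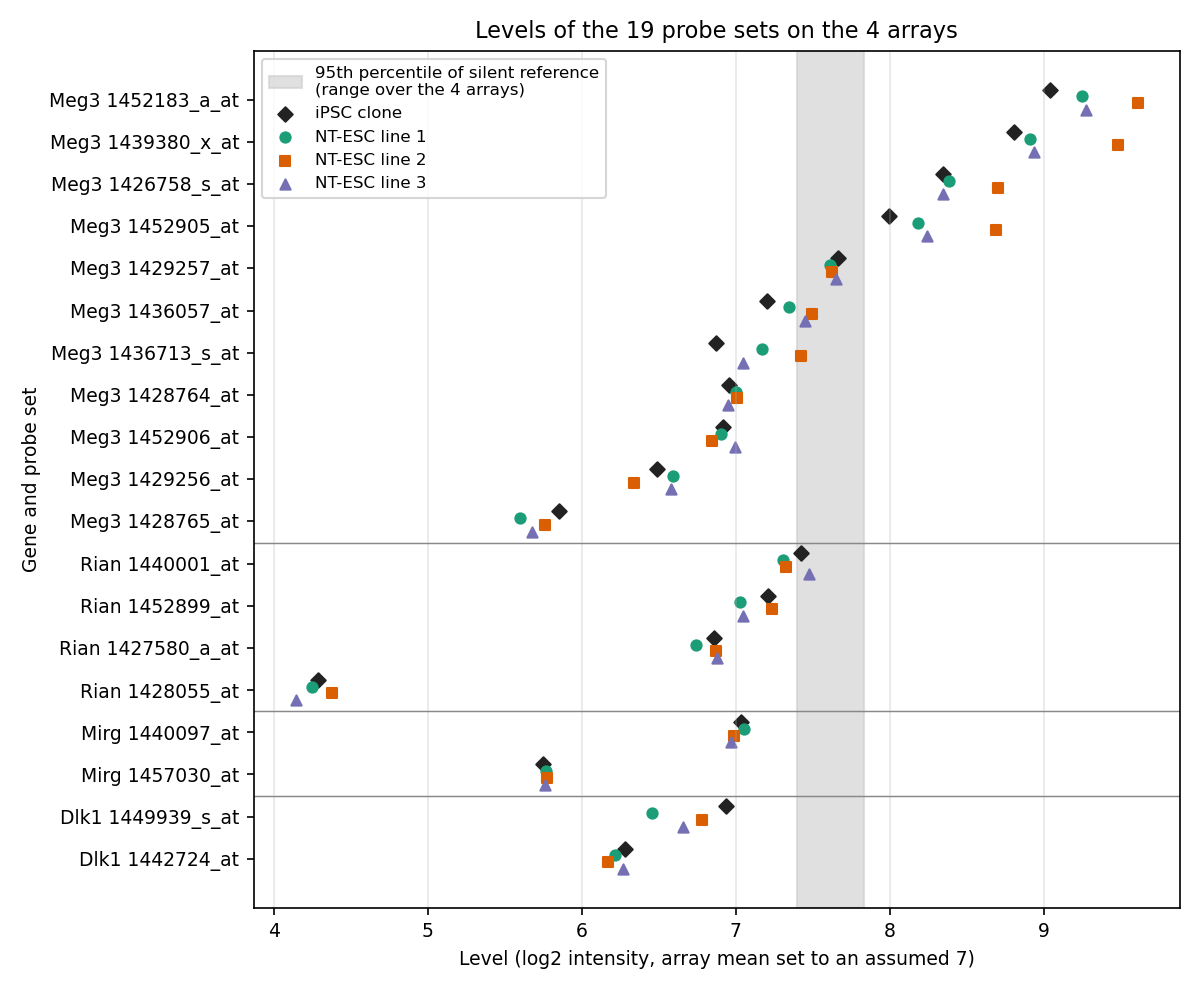
Level of each of the 19 probe sets (rows, by gene) on the 4 arrays, as log2 intensity for an assumed array mean of 7; each marker is 1 array, and the grey band spans the 95th percentile of the silent reference on the 4 arrays, 7.40 to 7.83. The upper 4 Meg3 probe sets lie to the right of the band on every array, with line 2 farthest right, and all probe sets of Mirg and Dlk1 lie to its left.

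Among the 11 Meg3 probe sets the mean over the 4 arrays ran from 5.72 to 9.29. The 4 brightest were the ones above the limit on every array. Probe set 1452183_a_at, whose suffix marks probes matching transcripts of 1 gene, stood at 9.04 in the clone, 9.25 in line 1, 9.61 in line 2 and 9.28 in line 3. Probe set 1439380_x_at, whose suffix warns of possible cross-hybridization, stood at 8.81, 8.91, 9.48 and 8.93 in the same order. Line 2 was highest and the clone lowest on both.

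The unique probe set 1452905_at also had the clone lowest and line 2 highest, with 7.99 in the clone, 8.18 in line 1, 8.69 in line 2 and 8.24 in line 3. Probe set 1426758_s_at, which can match more than 1 gene, stood at 8.35, 8.38, 8.70 and 8.34, so that only line 2 left the others. In ranks, 1452183_a_at was brighter than 84.7% of all probe sets in the clone and than 89.6% in line 2. A pair of dimmer probe sets had the same extremes. For 1436713_s_at, which can also match more than 1 gene, the clone had 6.87 and lines 1 to 3 had 7.17, 7.42 and 7.05. For 1436057_at the clone had 7.20 and the lines 7.34, 7.50 and 7.45.

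The remaining 5 Meg3 probe sets did not share this pattern. Probe set 1429257_at was nearly flat, at 7.67, 7.61, 7.62 and 7.65, and 1428764_at spanned 0.05 over the arrays. Their ranges were wider than those of only 3.51% and 3.56% of all probe sets. Probe set 1452906_at was lowest in line 2 at 6.84 and highest in line 3, 1429256_at was lowest in line 2 at 6.34, and 1428765_at, the dimmest, was highest in the clone at 5.85. Probe sets of 1 gene can cover different exons or splice forms, and their positions on Meg3 are not used here. The annotation lists the same sequence record for 1452905_at, 1428764_at and 1428765_at, and another for 1429257_at and 1429256_at. Patterns thus differed among probe sets with the same record as well.

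**Figure D2:**
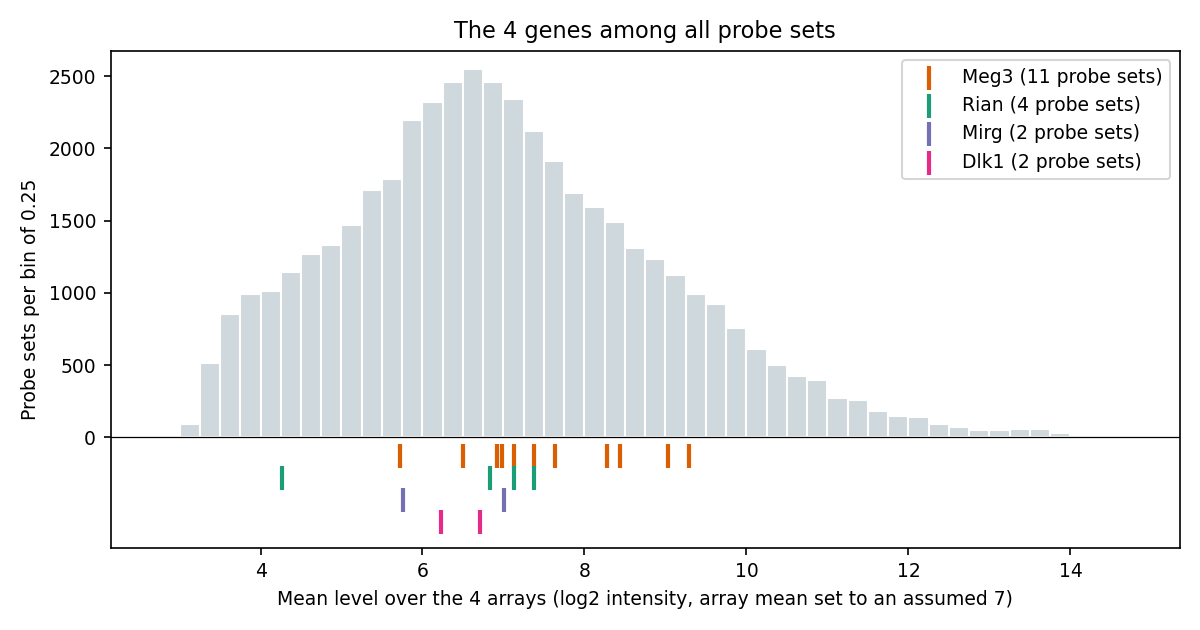
Histogram of the mean level over the 4 arrays of all 45037 probe sets (bars, number per bin of 0.25), with the 19 probe sets of the 4 genes as ticks below the axis. Meg3 spans 5.72 to 9.29, while Rian, Mirg and Dlk1 stay at or below 7.38, near the peak of the distribution or to its left.

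Rian, the long noncoding RNA that hosts small nucleolar RNAs, had 7.42 in the clone, 7.31 in line 1, 7.32 in line 2 and 7.48 in line 3 on its brightest probe set, 1440001_at. On 1452899_at the clone had 7.21 and lines 1 to 3 had 7.03, 7.23 and 7.04, and on 1427580_a_at the clone had 6.86 and the lines 6.74, 6.87 and 6.87. The dimmest, 1428055_at, ran from 4.14 to 4.38 and lay above only 6.82% to 9.05% of all probe sets. The clone lay inside the range of the lines on all 4 Rian probe sets. Mirg, the microRNA host at the far end of the noncoding RNAs, had 7.03 in the clone on 1440097_at, against 7.05, 6.99 and 6.97 in lines 1 to 3. On 1457030_at the clone was at 5.75 and the lines at 5.76 to 5.77. Its probe sets were nearly flat, with ranges of 0.08 and 0.02 over the arrays.

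Dlk1, a membrane protein with epidermal growth factor repeats that is related to the Notch ligands and made from the paternal copy, was highest in the clone on both probe sets. Probe set 1449939_s_at can match more than 1 gene. On it the clone had 6.93 and lines 1 to 3 had 6.45, 6.78 and 6.66, so the groups did not overlap. On the unique probe set 1442724_at the clone had 6.28 and the lines 6.22, 6.17 and 6.27, again without overlap. Of all probe sets, 27.5% had all 3 lines below the clone, and the 4 highest in the clone among the 19 were these 2 and the Meg3 probe sets 1429257_at and 1428765_at.

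Of the 19 probe sets, 0 passed the test of the NT-ESC lines against the clone. It was limma's (two-sided, Benjamini-Hochberg adjusted p under 0.05) over all 45037 probe sets, and the background was 0%, since 0 of them passed. At an unadjusted p under 0.05, 1548 probe sets (3.44%) were higher and 1061 (2.36%) lower, and 0 of the 19. With 1 clone array the spread comes from the 3 lines, moderated by limma over all probe sets, and the clone is assumed to vary like them. These p-values therefore set each difference against a spread between those arrays, which may be technical. The smallest adjusted p of any probe set was 0.849.

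The 4 largest differences among the 19 were those of Meg3, with the lines above the clone. Probe set 1452905_at was 8.37 ± 0.28 (SD, n = 3) in the lines, a difference of 0.38 ± 0.20 (SE) from the clone (limma, adjusted p = 0.858). Probe set 1436713_s_at differed by 0.34 ± 0.15, 1452183_a_at by 0.34 ± 0.16, 1439380_x_at by 0.30 ± 0.23 and 1436057_at by 0.23 ± 0.10. On these 5 probe sets all 3 lines lay above the clone, which also held for 1 Mirg probe set, making 6 of the 19, against 23.8% of all probe sets. Line 2 carried much of the size: without it the difference was 0.22 for 1452905_at, 0.22 for 1452183_a_at and 0.12 for 1439380_x_at, and that of 1426758_s_at went from 0.13 to 0.01. Over all 11 Meg3 probe sets the median difference was 0.13, and over all 45037 probe sets -0.0077.

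For Dlk1 the lines lay below the clone, and Rian and Mirg had smaller differences. Dlk1 1449939_s_at was 6.63 ± 0.16 (SD, n = 3) in the lines, a difference of -0.30 ± 0.14 (SE) from the clone (limma, adjusted p = 0.857). The unique Dlk1 probe set 1442724_at differed by -0.06 ± 0.09. The 4 Rian differences ran from -0.11 to -0.03 and those of Mirg were -0.03 and 0.02. All of these lay within the central 90% of all probe sets, -0.20 to 0.23, except that of Dlk1 1449939_s_at. The median over the 19 probe sets was -0.0045, and with quantile normalization it was 0.0061.

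**Figure D3:**
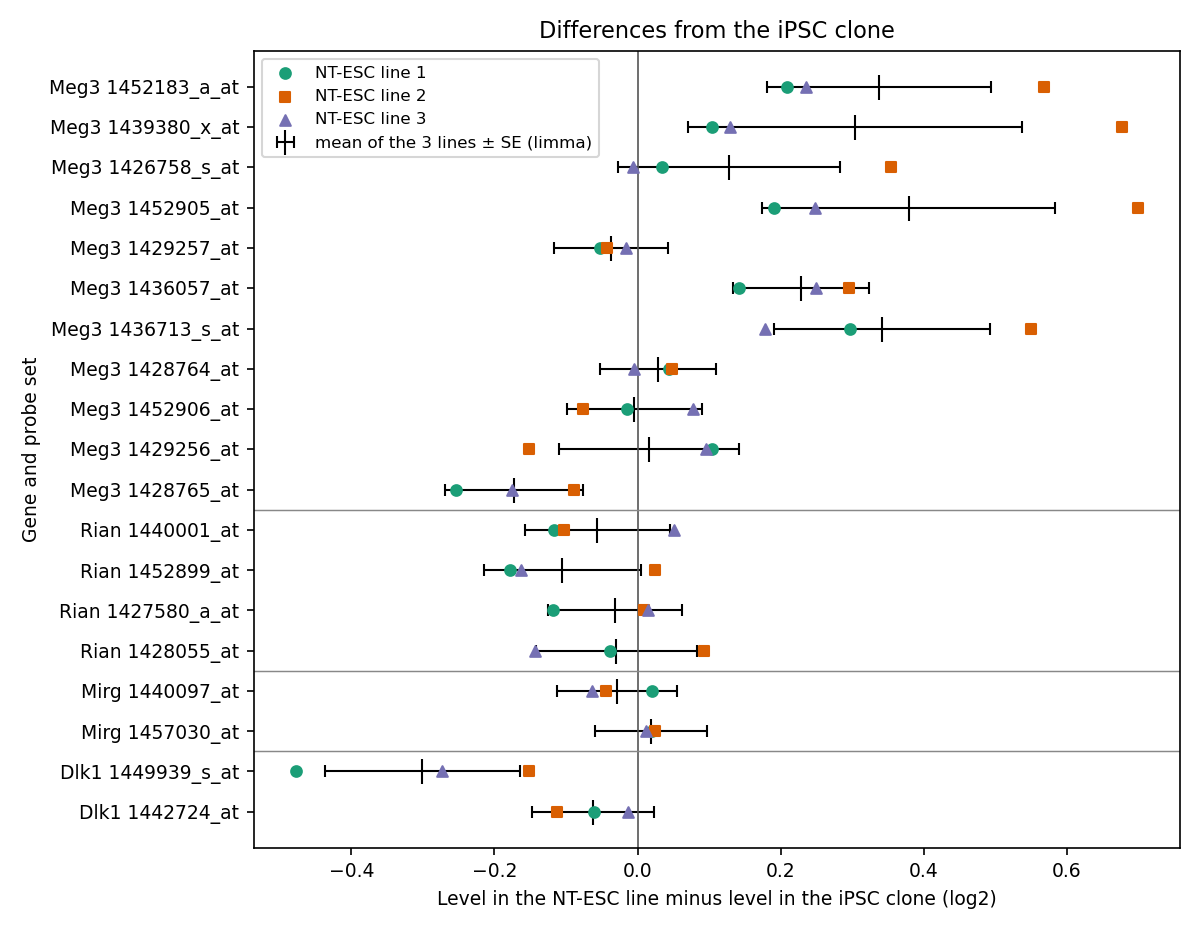
Level in each NT-ESC line minus the level in the iPSC clone (log2) for the 19 probe sets; coloured markers are the 3 lines, and the black bar is their mean with limma's SE. The lines lie to the right of 0 on 5 Meg3 probe sets, with line 2 up to 0.70 above the clone, and to the left on both Dlk1 probe sets; none passed limma's test.

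Line 2 was the array with the most Meg3 signal. It was highest on 7 of the 11 Meg3 probe sets, and on 10 of the 19 over the 4 genes, where 22.4% of all probe sets were highest in line 2. It was lowest on 3 of the 19, against 23.4% of all probe sets. Against the other 3 arrays, 1439380_x_at was higher by 0.60 ± 0.09 (SE), 1452905_at by 0.55 ± 0.12, 1452183_a_at by 0.42 ± 0.12, 1436713_s_at by 0.39 ± 0.13 and 1426758_s_at by 0.35 ± 0.08. These 5 had an unadjusted p under 0.05, as did 1.44% of all probe sets in that direction and 2.04% in the other, where none of the 19 lay, but none passed after adjustment (limma, Benjamini-Hochberg adjusted p = 0.999 for each). They target the same gene, so they are not 5 separate results. In the fits of single lines the clone and the other lines were pooled, and the SE rests on their spread, moderated over all probe sets. No probe set at all passed for line 2, a background of 0%. Rian, Mirg and Dlk1 had differences between -0.09 and 0.15 in that line.

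For line 1, 0 of the 19 passed, again against a background of 0%, and its lowest value was that of Dlk1 1449939_s_at, at -0.34 ± 0.12 against the other arrays (limma, adjusted p = 0.9995). That was the 1 member at an unadjusted p under 0.05, where 1.76% of all probe sets were higher and 1.58% lower. That line was lowest on 6 of the 19, among them 3 of the 4 Rian probe sets. Over all probe sets 23.9% were lowest and 21.5% highest in line 1, which was highest on 2 of the 19. For line 3, 0.104% of probe sets passed limma's test and 0 of the 19. At an unadjusted p under 0.05, 4.9% of all probe sets were higher and 4.04% lower in it, and 0 of the 19. Line 3 was highest on 3 of the 19 (25.7% of all probe sets) and lowest on 4 (26.2%). Its differences for the cluster ran from -0.16 for Rian 1428055_at to 0.12 for Rian 1440001_at.

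Markers of fibroblasts were also highest in line 2 more often than genes at large, with none called by limma there. These cells can remain from the feeder layer, and 16 of 27 measured fibroblast and feeder genes had a mean above the silent limit. Of the 27, 14 were highest in line 2, against 23.6% of all genes. The log2 levels of all 27 summed to 225.8 in the clone, 225.9 in line 1, 228.8 in line 2 and 225.1 in line 3. Such a sum is not an amount of RNA. The median difference of the list from the clone was 0.0075, 0.0938 and 0.0202 in lines 1, 2 and 3, while that of the 11 Meg3 probe sets was 0.10, 0.30 and 0.10. The part of the feeder RNA in the Meg3 signal was not tested.

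Among the collagens, which fibroblasts make in bulk and which were picked here after their values were seen, Col3a1 was at 9.44 in the clone, 9.48 in line 1, 9.89 in line 2 and 9.57 in line 3. Col1a2 was at 10.80, 10.81, 11.11 and 10.83 and Col1a1 at 9.87, 9.95, 10.18 and 9.95. Line 2 was highest for each of these 3, but not for every bright gene of the list. Col5a1 had 9.46 in line 1 and 9.44 in line 2, Acta2, Timp3 and Thbs1 were also highest in line 1, and S100a4 was highest in the clone. Other genes of the list were under the silent limit on every array, among them Lum at 5.58 to 5.84, Twist1 at 5.50 to 5.73 and Dcn at 7.28 to 7.31. For the Actb control, the excess of the 3' over the 5' probe set was also widest in line 2, 0.42 against 0.22 to 0.29, as it was for Gapdh, a sign of RNA quality whose part was not tested either. In bulk samples a change in the number of cells and a change in RNA per cell cannot be told apart.

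**Figure D4:**
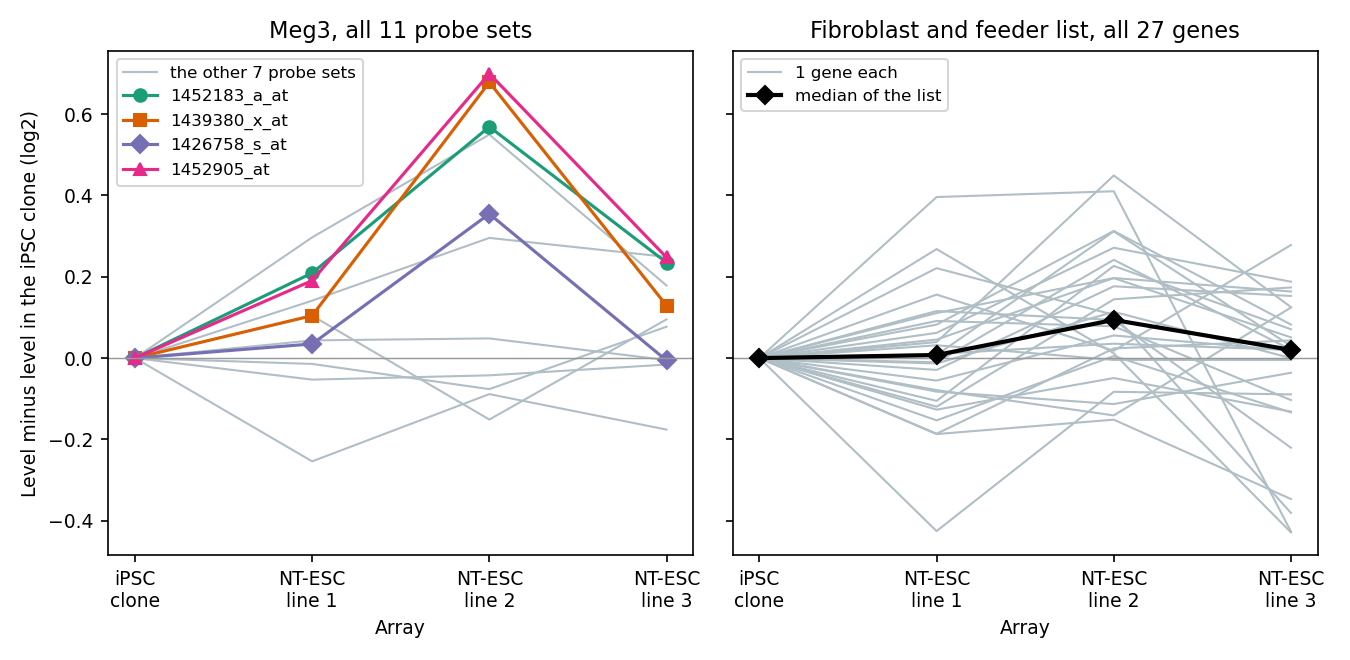
Level on each array minus the level in the iPSC clone (log2), for the 11 Meg3 probe sets (left, the 4 brightest in colour) and for the 27 fibroblast and feeder genes (right, grey, with their median in black). The brightest Meg3 probe sets peak in line 2 at 0.35 to 0.70, and the median of the fibroblast genes is also highest there, at 0.0938.

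The genes whose profile over the 4 arrays was nearest to that of Meg3 1452183_a_at were Tmem191c, Zc3h7a, Xaf1, Ssh1 and Ackr3. Likeness was the Euclidean distance between profiles centred on their own means, over 4 arrays and the 11746 genes whose mean was not under the median of all probe sets, and these 5 lay at 0.064 to 0.099, the only genes within 0.1. Tmem191c, the nearest, was at 7.98, 8.12, 8.48 and 8.20. For Rian 1440001_at, 1338 genes lay within 0.1, with Aurka, Ing5, Ywhah, A330009N23Rik and Sccpdh nearest at 0.011 to 0.016, so the 5 nearest are little closer than many others.

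Genes that flank the cluster were measured as well. The paternally expressed Rtl1 and Dio3 and the neighbour Begain had no probe set with a single gene in the annotation and are not analysed here. Dio3os, the antisense neighbour of Dio3, added after its value was seen, had 7.55 in the clone and 7.37, 7.41 and 7.40 in lines 1 to 3, a difference of -0.16 ± 0.08 (SE). Of 15 measured neighbours 7 were higher and 2 lower in all 3 lines, with a median difference of 0.09, and 0 passed limma's test. Over all genes 24.7% were higher and 26.7% lower in all lines, with a median of -0.0031. The largest differences were those of Dync1h1, the heavy chain of cytoplasmic dynein, at 0.26 ± 0.09, Ppp2r5c, a regulatory subunit of protein phosphatase 2A, at 0.24 ± 0.09, Evl, an actin regulator, at 0.22 ± 0.09 and Rcor1, a corepressor, at 0.22 ± 0.11. Without line 1 the median of the neighbours was 0.0174.

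Most genes listed as regulators of the cluster's imprint, among them Tet and Polycomb genes, had a mean above the silent limit. Of 21 regulators, 19 lay above it, 5 were higher and 3 lower in all lines, the median difference was 0.024 (0.067 without line 3) and 0 passed limma's test. ZFP57 protects methylated imprints after fertilisation, and its gene Zfp57 had 9.50 in the clone and 9.55, 9.82 and 9.66 in lines 1 to 3. Trim28, which encodes the corepressor it recruits, had 13.38 in the clone against 13.37, 13.42 and 13.19. Their mean differences were 0.18 ± 0.12 and -0.06 ± 0.11 (SE).

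The de novo DNA methyltransferase genes were lower in the mean of the lines, without passing the test. Dnmt3a had 10.50 in the clone and 10.02, 10.02 and 10.50 in lines 1 to 3, so line 3 equalled the clone. Dnmt3b had 11.54 and then 11.46, 11.27 and 10.81, a difference of -0.36 ± 0.24, and Dnmt3l, their cofactor, differed by -0.25 ± 0.15. Dppa3, an egg factor that shields the maternal genome from demethylation, had 9.32 in the clone and ranged more widely over lines 1 to 3, at 9.88, 9.50 and 8.55. Suz12, a Polycomb subunit, was higher in all lines, with a difference of 0.31 ± 0.08 that did not pass (limma, adjusted p = 0.849).

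Imprinted genes of other loci lay on both sides of the clone. Of 12 measured maternally expressed genes 3 were higher and 3 lower in all lines, with a median difference of -0.0063. The largest were those of the growth regulators Phlda2, at -0.47 ± 0.12, and Cdkn1c, at -0.40 ± 0.13, then Ube3a, at 0.16 ± 0.09, and Slc22a18, at -0.11 ± 0.08. In line 2, 8 of the 12 were highest, against 23.6% of all genes. Only 7 of the 12 had a mean above the silent limit. Of those highest in line 2, Kcnq1 at 7.05, Th at 6.30 and Dcn at 7.31 were under the limit on every array. Dcn is on this list and on the fibroblast list. Of 19 paternally expressed genes 3 were higher and 4 lower in all lines, with a median of 0.015. Nnat, which encodes neuronatin, had 5.30 in the clone and 5.96 and 6.72 in lines 1 and 2, with line 3 below the clone, and was under the silent limit on all arrays. Zdbf2 differed by 0.96 ± 0.25, Sgce by 0.39 ± 0.22 and Mest by -0.38 ± 0.18, and 0 genes of either list passed limma's test.

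Dlk1 is related to the Notch ligands, so Notch genes were set beside it. Of 18 measured, 6 were higher and 4 lower in all lines, with a median difference of 0.032, and 0 passed limma's test. The receptor gene Notch4 had 7.60 in the clone and 8.44, 8.16 and 8.24 in lines 1 to 3, a difference of 0.68 ± 0.13. The target gene Hes1 differed by 0.40 ± 0.11, Notch3 by 0.26 ± 0.13 and the ligand gene Dll1 by -0.24 ± 0.11. Dlk1 itself lay below the silent limit on all 4 arrays.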

How the data were processed

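RNA was measured on 4 arrays, 1 of the iPSC clone and 3 of NT-ESC lines, grouped by their titles. The deposited log2 values had a mean ratio of 1 per array and ratios from 0.422 to 2.03, so they were read as log2 of log intensity over the array's mean. The software and settings that made them are not given in the sources used here. A level is that ratio times 7, the mean assumed for each array. A mean of 6 makes differences 14.3% smaller and a mean of 7.86 (brightest probe set at 16) makes them 12.3% greater. The number of arrays limits the precision.

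Of 45101 probe sets 64 were controls. The annotation gave 1 gene for 34945, several for 932 and none for 9160; 34741 were found in RefSeq (GRCm38.p6). limma 3.58.1 in R 4.3.3 (lmFit, eBayes) was fitted on all 45037 probe sets that were not controls, whatever their annotation. A gene in a list was its brightest probe set. Named genes are all probe sets of the 4 genes, the 4 largest differences of each list, preset regulators and the 5 nearest profiles. The members and lists were chosen with earlier results of these data known.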

Additional observations from a re-analysis of the deposited data

How the results depend on the processing

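No probe set of the 4 genes was called in any setting of any contrast. An assumed mean of 6 or 7.86, quantile normalization, median centring, the deposited values fitted as given, leaving out dim probe sets, 1 probe set per gene and leaving out each line in turn also called 0 of all probe sets between the lines and the clone (smallest limma adjusted p from 0.710 to 0.953). Of 169 alternative values for single probe sets in that contrast 161 kept their direction. Meg3 1452906_at, at -0.0045, turned to 0.011 with median centring and 0.0061 with quantile normalization, and ran from -0.045 to 0.031 with a line left out. With a line left out Meg3 1429256_at ran from -0.028 to 0.10, Rian 1427580_a_at from -0.054 to 0.012 and Rian 1428055_at from -0.091 to 0.027; in line 2 against the other arrays Meg3 1428765_at ran from -0.00067 to 0.13. These fits changed nothing but the array left out; those of single lines were added after the data were seen.

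In line 3 against the other arrays limma called 47 of all probe sets, 0 with the deposited values fitted as given or any 1 of the other arrays left out, and 84 with 1 probe set per gene. With the 99th percentile of the silent reference, 2, 2, 4 and 4 of the 19 probe sets passed in the clone and lines 1 to 3. Of all probe sets 18.9%, 19.2%, 20.6% and 27.4% did. With the 90th the counts were 6, 6, 9 and 7, against 39.8%, 40%, 41.9% and 39.9% of all probe sets. With the array's median as limit they were 14, 12, 13 and 13, where 50% of all probe sets passed on each array. At the median the 19 thus passed more often than probe sets at large on every array. Of those passing, 9 on each array were of Meg3 and the rest of Rian, Mirg and, in the clone, Dlk1. With 1 common limit, added after the data were seen, the count was 4 in line 2, where 33.7% of all probe sets passed. No paired analysis was possible with 1 clone array, and the replicate numbers do not mark pairs.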
